A study of Mus musculus with 24 samples.

Results

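The Serpina genes on mouse chromosome 12 encode secreted serine protease inhibitors and hormone carriers, made mainly by hepatocytes. Described here are 10 of them in liver: the antitrypsin paralogs Serpina1a, Serpina1b, Serpina1c, Serpina1d and Serpina1e, the antichymotrypsin-related Serpina3c, Serpina3k and Serpina3m, Serpina6, and Serpina11. They were selected by gene name, with earlier genotype and diet contrasts of these same livers in view, so their levels and differences are descriptions and lend no support to a conclusion. The count table lists 55335 genes, of which 13281 passed the expression filter, and all 10 members were among those.

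Liver RNA came from 24 female mice in 6 groups of 4. The 3xTg-AD line (3xTg) is known to carry mutant human APP and tau transgenes, driven in neurons by a Thy1 promoter, beside a further engineered allele. The wild-type (WT) mice were B6129SF2/J, a hybrid background strain. Because the lines were compared as such, the transgenes and the rest of the line's genome cannot be told apart. From 3 months of age the mice ate 1 of 3 diets for 6 months. The control diet held 70% carbohydrate, 20% long-chain triglycerides and 10% protein. In the MCT diet, 10% medium-chain triglycerides took the place of an equal share of the long-chain ones. The ketogenic diet (KD) had no carbohydrate, 90% long-chain triglycerides and 10% protein.

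Serpins hold a flexible reactive centre loop near the carboxyl end that acts as bait for a target protease. When the protease cuts the loop, the serpin snaps into a new fold and traps the enzyme. Antitrypsin is best known for restraining neutrophil elastase, and antichymotrypsin for restraining cathepsin G and chymase. Humans have 1 gene for each, whereas the mouse has expanded both into families whose loops differ. Serpina6 encodes corticosteroid-binding globulin, a serpin without inhibitory action that carries glucocorticoids in blood. The role of Serpina11 is not well defined.

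The antitrypsin paralogs are so alike that part of their sequence cannot be assigned to 1 gene. Their coding sequences, taken from GENCODE M21 transcripts on GRCm38, matched at 96.3% to 98.5% of bases, with Serpina1a and Serpina1c the closest pair. Only 86 of 1242 aligned coding positions differed among the 5 genes, yet 18 of those fell in 1 window of 60 bases near the 3′ end, in the region where serpins encode the reactive centre loop. That window is shown because it is where the paralogs differ most from one another. In it 30.0% of positions differed, against 6.9% over the whole alignment. It covers coding bases 1101 to 1160 in Serpina1b to Serpina1e and 1170 to 1229 in Serpina1a, which has a longer coding sequence. Capitals mark positions at which the 5 genes are not all the same.
Serpina1a: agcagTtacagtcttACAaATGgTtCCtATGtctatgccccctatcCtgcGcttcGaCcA
Serpina1b: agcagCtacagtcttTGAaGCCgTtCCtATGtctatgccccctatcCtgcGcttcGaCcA
Serpina1c: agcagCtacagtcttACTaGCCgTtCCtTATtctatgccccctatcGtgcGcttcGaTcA
Serpina1d: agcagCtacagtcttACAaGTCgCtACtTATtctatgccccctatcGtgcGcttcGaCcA
Serpina1e: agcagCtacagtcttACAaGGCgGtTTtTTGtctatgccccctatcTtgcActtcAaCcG

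The antichymotrypsin-related genes are less alike. Serpina3k and Serpina3m matched at 91.8% of aligned coding bases, Serpina3c and Serpina3m at 89.7%, and Serpina3c and Serpina3k at 86.1%. Their most variable 60-column window also lay near the 3′ end of the coding sequence, where 35 of 60 columns differed, gaps included, against 221 of 1263 over the whole alignment. It covers coding bases 1124 to 1174 of Serpina3c, 1130 to 1183 of Serpina3k and 1124 to 1183 of Serpina3m. Capitals again mark columns that differ among the genes.
Serpina3c: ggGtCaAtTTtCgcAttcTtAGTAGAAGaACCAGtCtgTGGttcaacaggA
Serpina3k: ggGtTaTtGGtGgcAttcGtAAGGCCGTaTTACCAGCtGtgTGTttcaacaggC
Serpina3m: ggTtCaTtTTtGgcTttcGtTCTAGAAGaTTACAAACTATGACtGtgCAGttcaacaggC

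How far a read can be assigned was described by the share of each transcript's stretches that occur in no other annotated gene. For Serpina1c, 25.8% of 50-base stretches and 41.5% of 100-base stretches were unique. For Serpina1a the shares were 32.6% and 50.1%, and for Serpina1d 49.1% and 70.7%. Serpina1b and Serpina1e were the most distinct antitrypsin genes, at 64.2% and 64.4% of 50-base stretches. Of the other members, Serpina6 was wholly unique, Serpina3c, Serpina3k and Serpina3m were at 80.9% to 95.7%, and Serpina11 was at 55.6%. Serpina11 shared 44.4% of its 50-base stretches with Gm28577, an annotated locus that overlaps it. The deposited counts hold reads assigned to a single gene, and read length is not given in the sources used here. The level of an antitrypsin paralog is thus uncertain beside that of Serpina6 or Serpina3c.

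**Figure D1:**
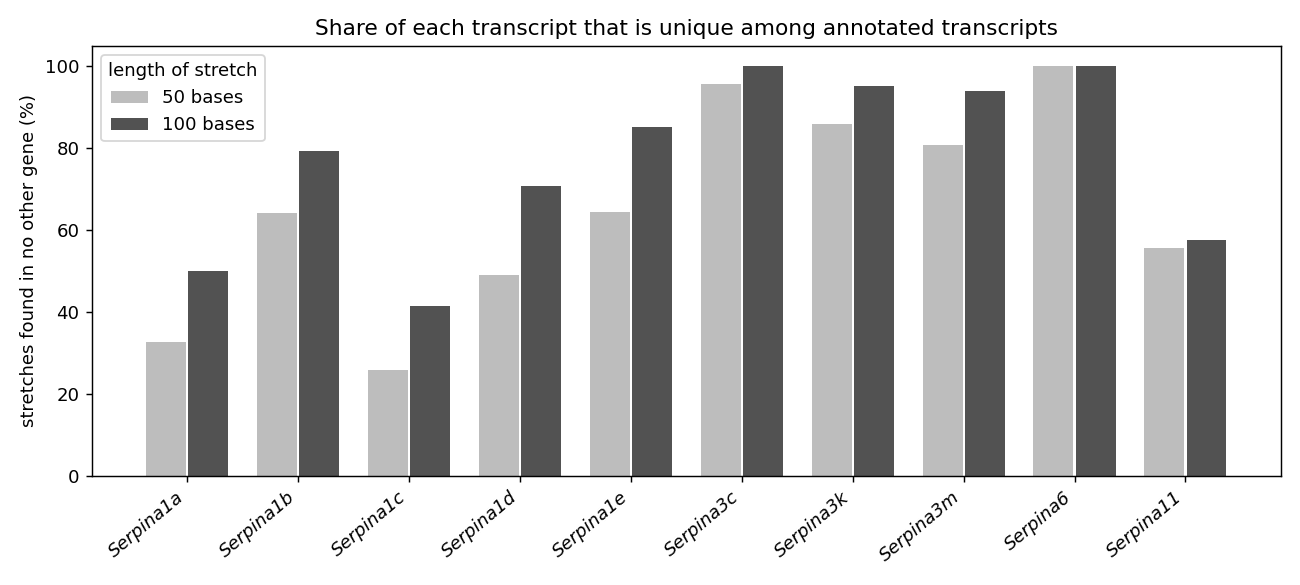
Share (%) of 50-base (light bars) and 100-base (dark bars) stretches of each member's transcript found in no other annotated gene. Serpina1c and Serpina1a are lowest, at 25.8% and 32.6% for 50 bases, and Serpina6 is at 100%.

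The promoters of the antitrypsin genes share the same proximal sequence. RefSeq (GRCm38.p6) promoter entries were found for 7 members, covering 250 bases before the start, and the 5 antitrypsin promoters matched one another at 92.1% to 98.0% of aligned bases. A run of 55 bases was identical in all 5 and was found in 5 of 27025 promoters. It holds GTTAAT, a half-site for HNF1, a homeodomain factor known to drive antitrypsin in hepatocytes. GTTAAT on either strand was present in 6.5% of all promoters. A match is a description of letters, not a binding site. The shared run is given first, followed by the 130 bases before the start of Serpina1b (chr12:103738190-103738319, minus strand) and of Serpina1d (chr12:103773634-103773763, minus strand), with GTTAAT in capitals.
Shared run: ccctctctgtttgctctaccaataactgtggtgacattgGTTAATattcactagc
Serpina1b promoter: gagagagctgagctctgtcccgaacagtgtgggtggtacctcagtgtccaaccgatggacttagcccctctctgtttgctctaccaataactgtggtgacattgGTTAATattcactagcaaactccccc
Serpina1d promoter: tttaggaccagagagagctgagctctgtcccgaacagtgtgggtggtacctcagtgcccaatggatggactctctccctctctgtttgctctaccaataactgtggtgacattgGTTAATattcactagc

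Other motifs were searched on both strands in the same 250 bases. The C/EBP core TTGCNNAA (9.6% of all promoters) was found in Serpina1b, Serpina1d and Serpina1e, whereas the STAT motif TTCNNNGAA (7.2%) was found in Serpina11. The TATA box TATAAA (13.0%) was found in Serpina3c, which also held GTTAAT on the opposite strand. None of these motifs overlapped GTTAAT. In Serpina1e the GTTAAT of the shared run lay 78 bases before the RefSeq start, against 16 to 27 in the other antitrypsin genes. The bases after that start were found in a GENCODE transcript for Serpina1e, but not for Serpina1a to Serpina1d. The distances are thus taken from starts that may not correspond, and do not show that the site lies elsewhere in Serpina1e.

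Gene counts per library ran from 12009432 to 20108831. Levels are CPM, counts scaled to library totals after TMM normalisation, as mean ± SD over 4 livers, and differences are log2 fold changes ± SE from edgeR, with p-values adjusted over the 13281 genes and called under 0.05. Transcripts of exocrine pancreas stood apart in 6 libraries (WT KD replicates 1, 2 and 4, WT MCT replicate 3, 3xTg MCT replicates 3 and 4), whose summed level over 17 markers was 1020 to 17600 CPM against at most 29.5 elsewhere. Neutrophil markers (8 genes) also set 2 livers apart, 3xTg KD replicate 2 at 87.6 CPM and replicate 3 at 97 CPM, where no other liver passed 18.7. All 24 libraries carried high hepatocyte markers, from 118000 to 216000 CPM over 11 genes. Marker sums, here and below, are scaled by library total alone, without TMM. In bulk RNA, fewer cells of a type and less RNA per cell cannot be told apart. The labels give 4 mice per group, with no cage or batch stated.

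Levels per kilobase set reads assigned to a single gene against the full exon length. The order of members may thus also depend on how unique each one is, from 25.8% (Serpina1c) to 100% (Serpina6) of 50-base stretches. On that scale Serpina1b was the most abundant member in WT livers on control diet, at 792 ± 234 CPM per kb. It was followed by Serpina6 at 603 ± 133 and Serpina3k at 533 ± 328, and these overlapped within 1 SD. Serpina1d (319 ± 82.8), Serpina1c (290 ± 78.1), Serpina1a (284 ± 64.3) and Serpina3m (228 ± 40.9) formed a middle set that did not separate beyond its spread. Serpina1e was at 81.6 ± 19.1, below that set by more than 1 SD, while Serpina11 (36.6 ± 10.3) and Serpina3c (33.3 ± 17.1) came last. In 3xTg livers on the same diet the order was different at the top. Serpina1d led at 1444 ± 192 CPM per kb, next to Serpina1b at 1389 ± 147, and Serpina3c was again last at 0.0435 ± 0.0171. Together the 5 antitrypsin genes took 0.339% ± 0.0563 of all gene counts in WT and 0.773% ± 0.0435 in 3xTg livers on control diet. Reads not assigned to a single gene are outside these shares, so they are not shares of all antitrypsin RNA.

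**Figure D2:**
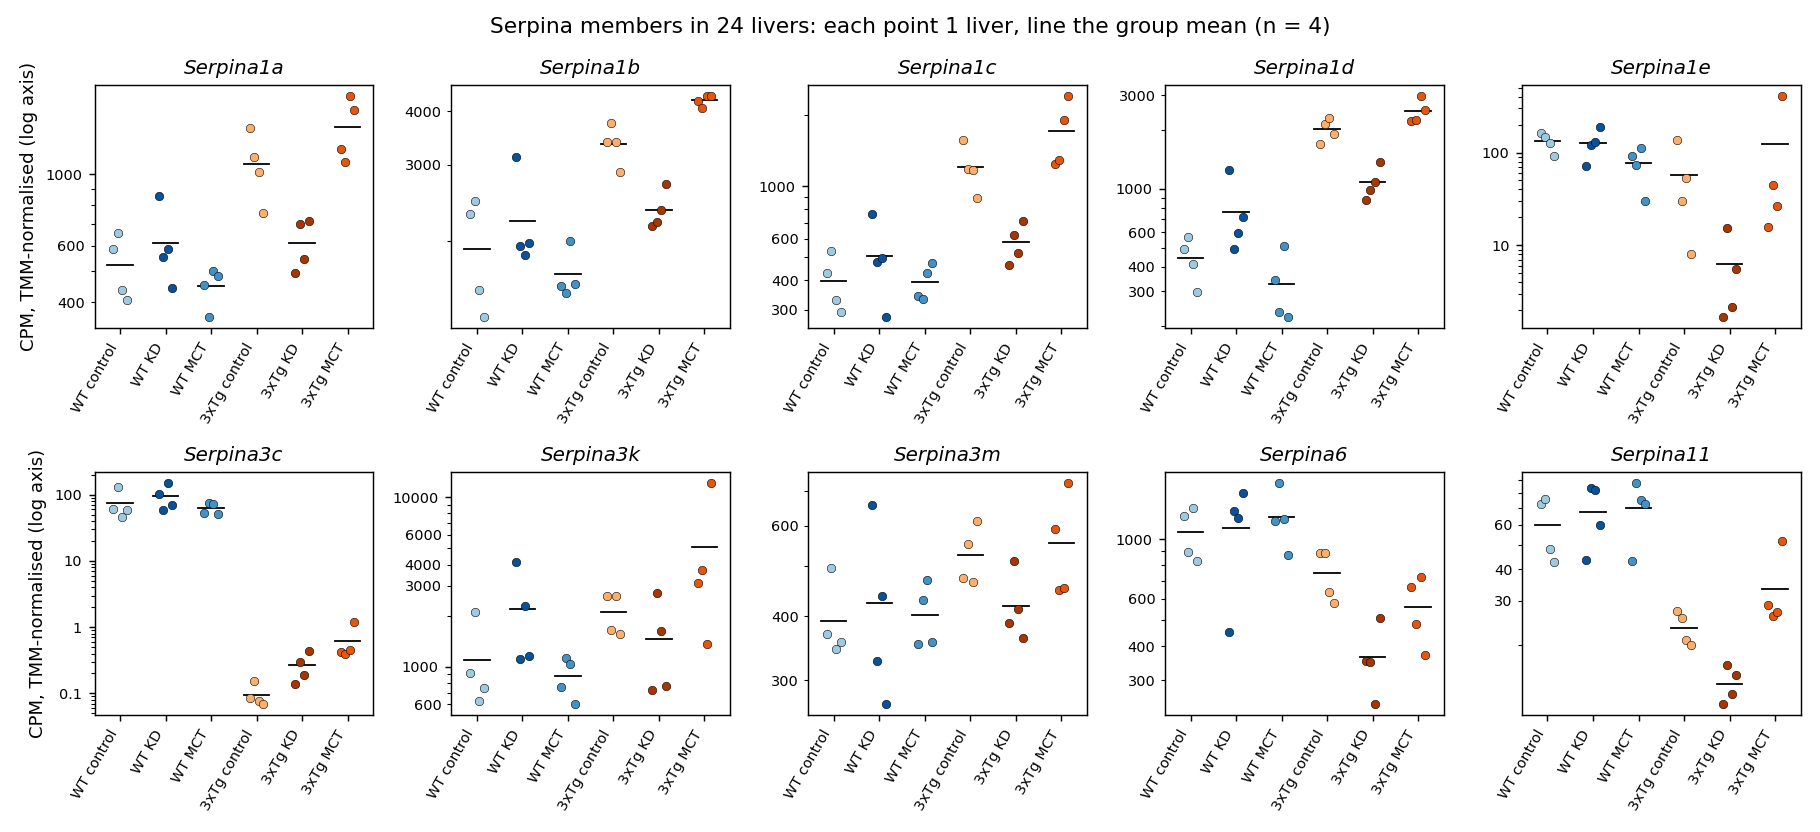
CPM (log axis) of each member in 24 livers, grouped by genotype and diet, with 1 point per liver and a line at the group mean. Serpina3c separates WT (45.5 to 151 CPM) from 3xTg (at most 1.22 CPM) on every diet, and Serpina1a to Serpina1d are highest in 3xTg livers on control diet and MCT.

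The comparison of 3xTg with WT livers on control diet asks how the lines differ when neither was fed KD or MCT. Serpina1a, Serpina1b, Serpina1c and Serpina1d were higher in 3xTg, and Serpina3c and Serpina11 were lower. That is 4 of 10 members higher, where 0.798% of all tested genes were called higher, and 2 of 10 lower, where 1.06% were. The members' median log2 fold change was 0.62, against -0.00107 over all genes. Since the choice of members was made with this contrast known, nothing is read from those shares.

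Serpina1d showed the widest gap among the antitrypsin genes. Its 4 WT livers were at 495, 568, 415 and 298 CPM, and its 4 3xTg livers at 1691, 2144, 2304 and 1912 CPM. The lowest 3xTg liver was thus about 3 times the highest WT liver, and the groups did not overlap. The difference was 2.18 ± 0.28 (edgeR adjusted p = 4.1e-05), a 4.53-fold higher level. Serpina1c was 3.05-fold higher (1.61 ± 0.27, edgeR adjusted p = 0.00108), with WT livers at 292 to 529 CPM and 3xTg livers at 888 to 1571. Serpina1a was 2.06-fold higher (1.05 ± 0.22, edgeR adjusted p = 0.00989), at 407 to 654 against 758 to 1394 CPM. Serpina1b, the most abundant paralog, was 1.75-fold higher (0.81 ± 0.20, edgeR adjusted p = 0.03), at 1328 to 2474 against 2891 to 3756 CPM. None of these ranges overlapped. The call of Serpina1b was lost in 5 of 8 fits without 1 liver, with adjusted p up to 0.12, and that of Serpina1a without WT control replicate 3 (edgeR adjusted p = 0.0536).

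Serpina1e did not follow its paralogs. In WT livers on control diet it was at 163, 146, 127 and 91.2 CPM, and in 3xTg livers at 137, 30.1, 53.0 and 8.13 CPM. The 3xTg livers spanned 16.9-fold from lowest to highest, the WT livers 1.79-fold, and the ranges overlapped. The difference of -1.21 ± 0.83 did not pass the test (edgeR adjusted p = 0.637).

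The division of antitrypsin counts among the paralogs also differed between the lines. Serpina1d made up 13.1% ± 1.03 of the summed Serpina1a to Serpina1e level in WT and 26.3% ± 4.09 in 3xTg livers on control diet. Serpina1b made up 55.9% ± 1.79 and 43.6% ± 1.93, and Serpina1e 3.92% ± 0.483 and 0.71% ± 0.683. The shares of Serpina1d ran from 7.90% to 20.5% over the 12 WT livers and from 20.7% to 29.6% over the 12 3xTg livers, so they did not overlap on any diet. The sum itself was 3403 ± 922 CPM in WT and 7702 ± 840 in 3xTg livers on control diet, a log2 ratio of 1.18. No test was run on shares or sums, since paralogs can share reads and were chosen with these values known.

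**Figure D3:**
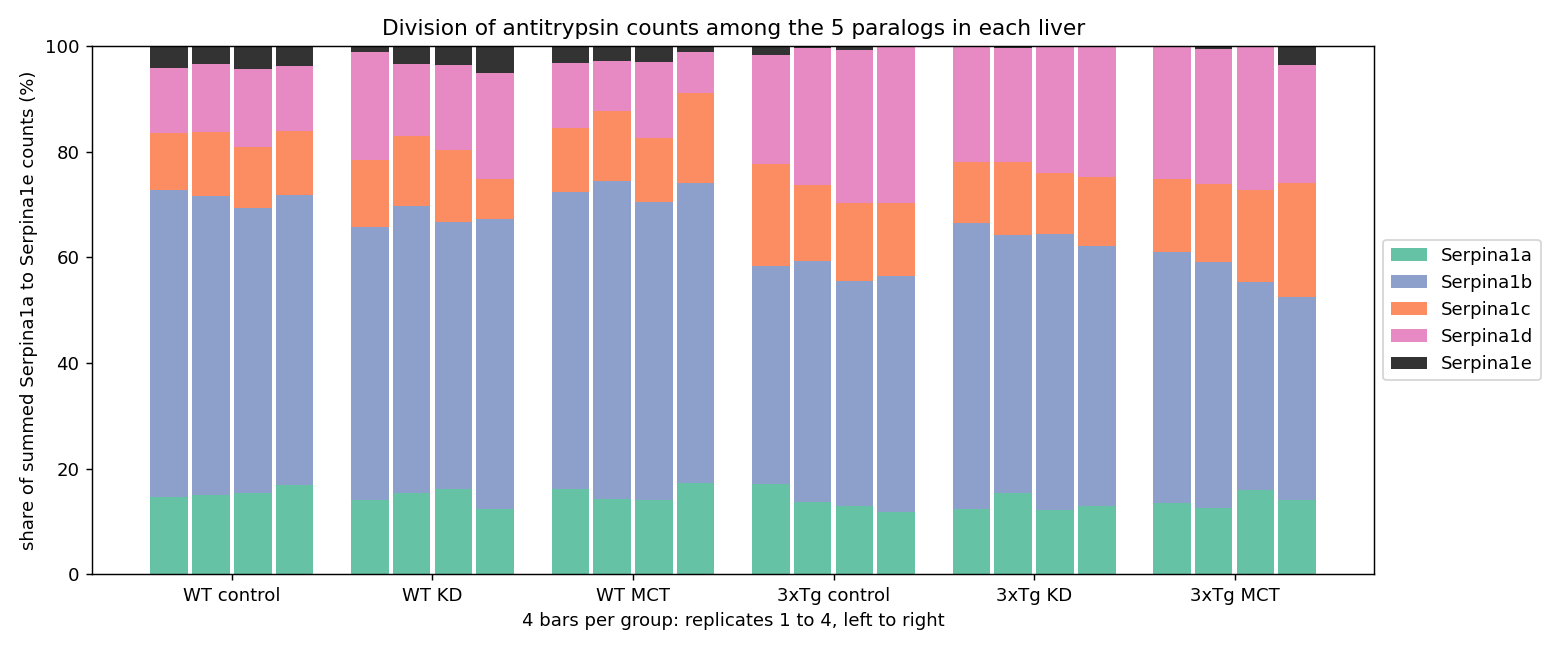
Share (%) of the summed antitrypsin level held by each of 5 paralogs, 1 bar per liver and 4 bars per group in replicate order. Serpina1d takes 20.7% to 29.6% in 3xTg livers against 7.90% to 20.5% in WT livers.

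The pseudogene Gm8893 bears on this division. It is annotated as an unprocessed pseudogene at chr12:103817856-103822243 (GRCm38), inside the interval given for Serpina1b (chr12:103728156-103830373), which also encloses Serpina1d (chr12:103763594-103773592). It shared 37.4% of the 50-base stretches of Serpina1a, 36.6% of those of Serpina1c, 27.6% of Serpina1d, 20.8% of Serpina1b and 18.7% of Serpina1e. It is not a member and was singled out after its counts had been seen.

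Gm8893 was lower in 3xTg livers on all 3 diets. On control diet its WT livers were at 512, 694, 330 and 297 CPM, and its 3xTg livers at 8.71, 8.75, 5.39 and 5.70 CPM. Over all diets its counts ran from 3358 to 8220 in the 12 WT livers and from 50 to 133 in the 12 3xTg livers. The log2 difference was -6.00 ± 0.36 on control diet, -6.13 ± 0.36 on KD and -5.89 ± 0.36 on MCT (edgeR adjusted p = 1.92e-10, 1.35e-10 and 2.56e-10). Adding Gm8893 to the antitrypsin sum gave 3861 ± 1101 CPM in WT and 7709 ± 841 in 3xTg livers on control diet, a log2 ratio of 0.997 against 1.18 without it. Whether reads of Gm8893 and of the 5 genes were exchanged between the lines was not tested.

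Serpina3c was nearly absent from 3xTg livers. WT livers on control diet were at 60.4, 130, 45.5 and 59.5 CPM, whereas each 3xTg liver held 1 or 2 reads of the gene, or at most 0.152 CPM. With 3922 reads in WT and 5 in 3xTg, the WT level was 740 times the 3xTg level, with a 95% interval of 317 to 2280 that covers counting error only. On KD the ratio was 363 (230 to 614), with 2 to 7 reads in each 3xTg liver. On MCT it was 92.6 (67.6 to 130), with 5 to 23 reads. The fitted differences were -9.46 ± 0.51, -8.45 ± 0.45 and -6.58 ± 0.41, with edgeR adjusted p of at most 1.92e-10. No 3xTg liver came near a WT liver on any diet.

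Serpina11 was also lower in the 3xTg line. On control diet the WT livers were at 72.5, 76.2, 48.2 and 42.9 CPM, and the 3xTg livers at 27.3, 25.8, 21.0 and 20.1 CPM, with no overlap. The difference was -1.35 ± 0.26 (edgeR adjusted p = 0.00348). Serpina3k, Serpina3m and Serpina6 gave 0.94 ± 0.55, 0.43 ± 0.22 and -0.51 ± 0.29, with edgeR adjusted p of 0.542, 0.453 and 0.535, and their ranges overlapped.

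On MCT the comparison of 3xTg with WT livers gave 5 members higher, where 0.700% of all genes were called higher, and 2 lower, where 1.04% were. The median log2 fold change of the members was 1.02, against 0.00948 over all genes. Serpina1a, Serpina1b, Serpina1c and Serpina1d were again higher in 3xTg, with no overlap of the ranges. For Serpina1d, WT livers were at 341, 234, 511 and 221 CPM and 3xTg livers at 2218, 2234, 2971 and 2521 CPM, a difference of 2.93 ± 0.29 (7.61-fold, edgeR adjusted p = 7.54e-07). The differences of Serpina1c, Serpina1a and Serpina1b were 2.12 ± 0.28, 1.64 ± 0.22 and 1.35 ± 0.20 (edgeR adjusted p = 4.55e-05, 7.96e-05 and 0.000205). The summed antitrypsin level was 2916 ± 444 CPM in WT and 9964 ± 1343 in 3xTg livers.

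Serpina3k passed the test on MCT, but 1 liver weighed heavily in it. WT livers were at 764, 1126, 1044 and 603 CPM, and 3xTg livers at 3126, 3711, 1354 and 12144 CPM. Every 3xTg liver was above every WT liver, and 3xTg replicate 4 was more than 3 times the next highest. The difference was 2.52 ± 0.58 (edgeR adjusted p = 0.0216), and without that liver 1.63 (edgeR adjusted p = 0.137). It also lost its call without WT MCT replicate 1 or 4, and without all pancreas-bearing libraries. The same 3xTg liver had the highest levels of Serpina1c, Serpina1e, Serpina3c, Serpina3m and Serpina11 in its group, and its pancreas markers summed to 9040 CPM. The part of pancreas tissue in these levels was not tested.

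Serpina11 was lower in 3xTg on MCT as well, at 43.1, 88.1, 75.5 and 72.8 CPM in WT against 28.8, 26.2, 27.3 and 51.8 CPM in 3xTg livers. The difference of -1.06 ± 0.25 (edgeR adjusted p = 0.0287) lost its call in 6 of 8 fits without 1 liver, with adjusted p up to 0.104. Serpina6 gave -1.11 ± 0.30 (edgeR adjusted p = 0.059). It was called by DESeq2 (adjusted p = 0.00966) and by edgeR without an expression filter (adjusted p = 0.0334), and by edgeR without WT MCT replicate 4. Its WT livers, at 872 to 1618 CPM, lay above all 3xTg livers, at 372 to 722 CPM.

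On KD the pattern between the lines was different. None of the members was higher in 3xTg, where 4.27% of all genes were called higher, and Serpina1e, Serpina3c, Serpina6 and Serpina11 were lower, where 4.22% of all genes were. The members' median log2 fold change was -0.30, against 0.00154 over all genes. Serpina1a to Serpina1d gave 0.0070 to 0.50, with edgeR adjusted p of 0.273 to 0.991 and overlapping ranges. Scaling by library size alone moved the median of all genes in this contrast to 0.431, and then 3 members were called higher (Serpina1b at 0.53, Serpina1c at 0.67 and Serpina1d at 0.94) and the same 4 lower. With that scaling 33.5% of all genes were called higher and 1.53% lower. Relative to that median these 3 were at 0.095, 0.236 and 0.507. The sum of all 5 antitrypsin genes was 4229 ± 1227 CPM in WT and 4636 ± 634 in 3xTg livers.

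Serpina1e was at 70.8, 121, 130 and 188 CPM in WT livers on KD and at 1.68, 15.5, 2.17 and 5.60 CPM in 3xTg livers. The groups did not overlap, and the difference was -4.35 ± 0.94 (edgeR adjusted p = 0.00672). Serpina11 was at 43.5 to 84.3 CPM in WT and 11.7 to 16.7 in 3xTg livers, a difference of -2.26 ± 0.26 (edgeR adjusted p = 8.08e-06).

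Serpina6, the glucocorticoid carrier, was at 453, 1274, 1197 and 1480 CPM in WT livers on KD and at 354, 351, 245 and 508 CPM in 3xTg livers. WT replicate 1 fell inside the 3xTg range, and the other three stood well above it. The difference was -1.60 ± 0.30 (edgeR adjusted p = 0.00233). The calls of Serpina1e and Serpina6 were lost without both neutrophil-rich livers (3xTg KD replicates 2 and 3), whereas those of Serpina3c and Serpina11 were kept. Without those livers Serpina1e was at -5.13 and Serpina6 at -1.36 (edgeR adjusted p = 0.0576 and 0.0953). Over all genes the calls fell from 1128 to 142 in that smaller set.

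Other measures moved with this contrast. Kupffer cell markers summed to 504 to 767 CPM in 3xTg KD livers against 304 to 388 in WT KD livers, and stellate cell markers to 443 to 527 against 250 to 388, without overlap. Endothelial markers (287 to 344 against 224 to 305) and hepatocyte markers (118000 to 149000 against 139000 to 166000) overlapped. These sums are scaled by library total alone. TMM factors were 1.193 to 1.315 in 3xTg KD and 0.86 to 1.078 in WT KD libraries, so which markers overlap can differ on the TMM scale of the members. Reads that mapped to several places were 15.9% to 17.0% of reads in 3xTg KD and 19.8% to 24.3% in WT KD libraries. Their part in the differences of the members was not tested.

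**Figure D4:**
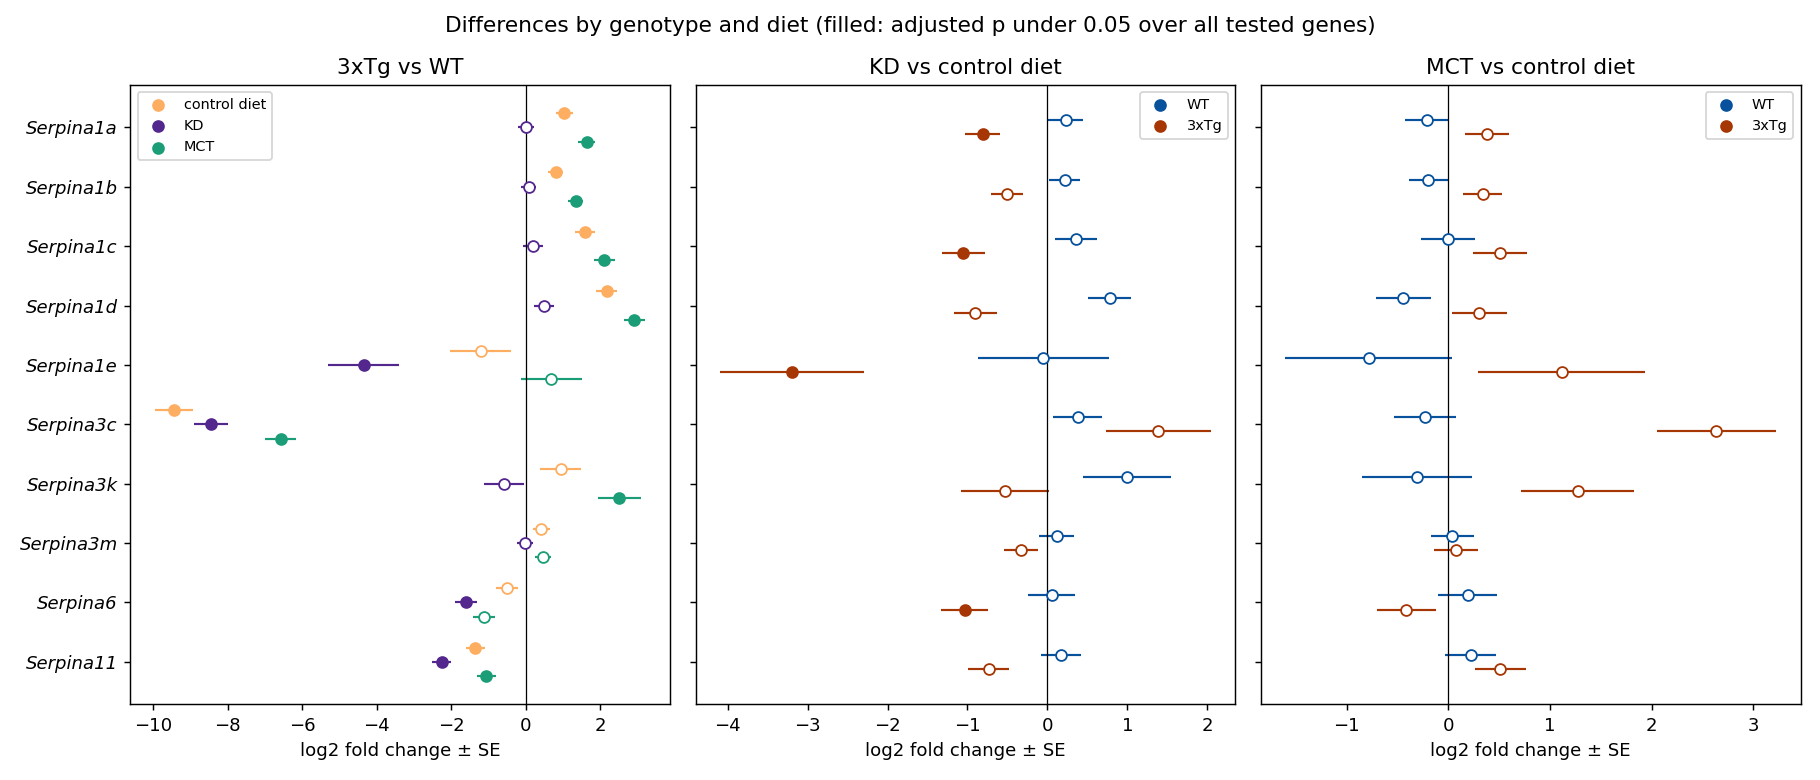
Log2 fold change ± SE of each member between the lines on 3 diets (left), between KD and control diet (middle) and between MCT and control diet (right), filled where adjusted p is under 0.05. Serpina1a to Serpina1d are higher in 3xTg on control diet and MCT and not called on KD with TMM scaling (3 of them are with library size alone), and every filled diet point is a lower level on KD in 3xTg livers.

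KD was then compared with control diet within each line. In WT livers no member passed the test by edgeR, where 0.648% of all genes did, and 1 member (Serpina1d) had an unadjusted p under 0.05, as did 12.3% of all genes. DESeq2 also called 0 members, where it called 2.04% of the genes it tested. Serpina1d gave 0.78 ± 0.27 (edgeR adjusted p = 0.201), from 444 ± 116 to 761 ± 336 CPM. Serpina3k gave 0.99 ± 0.55, with WT KD livers spread from 1105 to 4161 CPM.

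In 3xTg livers Serpina1a, Serpina1c, Serpina1e and Serpina6 fell on KD, 4 of 10 members where 2.54% of all genes were called lower. None rose, where 2.85% of all genes did. The members' median was -0.77, against 0.0127 over all genes. Serpina1a was at 1394, 1129, 1018 and 758 CPM on control diet and at 492, 702, 545 and 714 CPM on KD. The ranges did not overlap, although the lowest control liver was only just above the highest KD liver. The difference was -0.81 ± 0.22 (edgeR adjusted p = 0.0317). Serpina1c was at 1571, 1178, 1177 and 888 CPM on control diet and at 461, 623, 520 and 715 CPM on KD, again without overlap (-1.05 ± 0.27, edgeR adjusted p = 0.023).

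Serpina1d and Serpina1b missed the threshold, at -0.90 ± 0.27 (edgeR adjusted p = 0.0529) and -0.51 ± 0.20 (edgeR adjusted p = 0.141), although neither range overlapped between the diets. Serpina1d was at 878, 985, 1080 and 1362 CPM on KD, under all 4 control livers. The antitrypsin sum was 7702 ± 840 CPM on control diet and 4636 ± 634 on KD, a log2 ratio of -0.73. Within the sum, the share of Serpina1b was 43.6% ± 1.93 on control diet and 51.1% ± 2.54 on KD.

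Serpina6 was at 884, 885, 636 and 581 CPM in 3xTg livers on control diet and at 354, 351, 245 and 508 CPM on KD. All 4 KD livers were below all 4 control livers, and the difference was -1.03 ± 0.30 (edgeR adjusted p = 0.0423). Serpina1e fell by 3.20 ± 0.90 on the log2 scale (edgeR adjusted p = 0.0388), but its highest KD liver (15.5 CPM) was above its lowest control liver (8.13 CPM). Serpina11 gave -0.74 ± 0.25 (edgeR adjusted p = 0.0979), at 20.1 to 27.3 CPM on control diet and 11.7 to 16.7 on KD. Serpina3k and Serpina3m gave -0.53 ± 0.55 and -0.33 ± 0.22, with overlapping ranges. Serpina3c gave 1.39 ± 0.66 (edgeR adjusted p = 0.25) from 18 reads on KD and 5 on control diet.

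These falls were close to the threshold and moved with several other measures. Leaving out 3xTg control replicate 1, or 3xTg KD replicate 1 or 3, left no member called, and 3xTg control replicates 2 and 3 and 3xTg KD replicate 2 left 1 each. Without both neutrophil-rich livers no call was left. Serpina1a was then at -0.84, Serpina1c at -1.04, Serpina1e at -3.97 and Serpina6 at -0.798. Over all genes 76 calls were left in that smaller set, from 716. With library size alone 2 calls were left, Serpina1c and Serpina1e, with the median of all genes at 0.308, where 12.4% of all genes were called higher and 0.836% lower. Hepatocyte markers summed to 118000 to 149000 CPM in 3xTg KD livers and to 156000 to 216000 in 3xTg control livers. Markers of Kupffer cells (504 to 767 against 301 to 485 CPM), endothelium (287 to 344 against 226 to 279) and stellate cells (443 to 527 against 310 to 389) lay above those of 3xTg control livers, without overlap. These sums are scaled by library total alone. TMM factors were 1.193 to 1.315 in 3xTg KD and 0.9668 to 1.109 in 3xTg control libraries, so the ranges need not stay apart on the TMM scale of the members. Reads that mapped to several places were 15.9% to 17.0% of reads in 3xTg KD libraries and 16.1% to 23.4% in 3xTg control libraries. The part of cell makeup or read assignment in the falls was not tested.

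The test of whether KD acted differently in the 2 lines called none of the members by edgeR, where 0.00753% of all genes were called. At an unadjusted p under 0.05 there were 7 members, where 14.6% of all genes were. DESeq2 called 3 members (Serpina1a, Serpina1c and Serpina1d), where it called 1.91% of the genes it tested. The largest in relation to its error was Serpina1d, at -1.68 ± 0.38 (edgeR adjusted p = 0.0826), with 444 ± 116 and 761 ± 336 CPM in WT and 2013 ± 268 and 1076 ± 208 CPM in 3xTg livers on control diet and KD. Serpina1c gave -1.41 ± 0.38 (edgeR adjusted p = 0.11), Serpina1a -1.04 ± 0.31 (edgeR adjusted p = 0.131) and Serpina6 -1.09 ± 0.42 (edgeR adjusted p = 0.222). Serpina1e and Serpina3k gave -3.15 ± 1.19 and -1.52 ± 0.78 (edgeR adjusted p = 0.215 and 0.375), and Serpina3c 1.01 ± 0.71 (edgeR adjusted p = 0.542).

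MCT against control diet called no member in either line by edgeR, where 0% of all genes were called, with 803 genes (6.05%) in WT and 855 (6.44%) in 3xTg livers at an unadjusted p under 0.05. Of the members, 0 in WT and 2 in 3xTg reached that level, namely Serpina3c and Serpina3k. DESeq2 called 0 members in WT and 1, Serpina3c, in 3xTg, where it called 0.215% and 0.686% of the genes it tested. Serpina3c in 3xTg gave 2.64 ± 0.59 (edgeR adjusted p = 0.367), from 1 or 2 reads per liver on control diet to 5 to 23 on MCT. The ranges did not overlap, but both lie far below the WT level. Serpina1b on MCT, at 4220, 4065, 4341 and 4337 CPM, lay above all 3xTg control livers (0.34 ± 0.19, edgeR adjusted p = 0.897). Serpina3k gave 1.27 ± 0.55 (edgeR adjusted p = 0.737). Serpina1e gave 1.11 ± 0.83 in 3xTg (edgeR adjusted p = 0.99), and -0.975 without MCT replicate 4, which was at 407 CPM against 15.7 to 44.8 in the others.

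The difference between the lines in the MCT response called 0% of all genes and no member by edgeR or DESeq2. At an unadjusted p under 0.05 it reached 287 genes (2.16%) and 1 member, Serpina3c (2.87 ± 0.67, edgeR adjusted p = 1). Serpina1e gave 1.90 ± 1.16 and Serpina3k 1.58 ± 0.78, with the same adjusted p.

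KD and MCT were also set against each other. In WT livers no member passed by edgeR, where 0.181% of all genes did, and 3 had an unadjusted p under 0.05, where 7.24% of all genes did. DESeq2 called 1, Serpina1d, where it called 0.693% of the genes it tested. For Serpina1d edgeR gave 1.22 ± 0.27 (adjusted p = 0.0723), with 761 ± 336 CPM on KD and 327 ± 134 on MCT. Serpina3k gave 1.30 ± 0.56 (edgeR adjusted p = 0.6).

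In 3xTg livers 7 members were lower on KD than on MCT, where 4.43% of all genes were called lower, and none was higher, where 3.59% were. The members' median was -1.23, against -0.00795 over all genes. They were Serpina1a to Serpina1e, Serpina3k and Serpina11. Serpina1c was at 461, 623, 520 and 715 CPM on KD and at 1240, 1291, 1904 and 2414 CPM on MCT, a difference of -1.56 ± 0.27 (edgeR adjusted p = 0.00158). Serpina1d (-1.21 ± 0.27), Serpina1a (-1.19 ± 0.22), Serpina1b (-0.84 ± 0.20) and Serpina11 (-1.25 ± 0.26) were lower without overlap, with edgeR adjusted p of 0.00253 to 0.0108. Serpina1e gave -4.31 ± 0.94 (edgeR adjusted p = 0.0076), and lost its call without 3xTg MCT replicate 4 (edgeR adjusted p = 0.0604). Serpina3k was at the threshold, at -1.80 ± 0.56 (edgeR adjusted p = 0.0498), with overlapping ranges. Its call was lost in 5 of 8 fits without 1 liver, and without 3xTg MCT replicate 4 it was at -0.905 (edgeR adjusted p = 0.287). Serpina3c gave -1.25 ± 0.47 (edgeR adjusted p = 0.0977). Serpina6 gave -0.62 ± 0.29 (edgeR adjusted p = 0.203). Without the pancreas-bearing libraries 2 members were called (Serpina1c and Serpina1d), and without both neutrophil-rich livers 3 were (Serpina1a, Serpina1c and Serpina1e). Over all genes the calls fell from 1065 to 290 and 234 in those smaller sets. With library size alone 6 members were called lower, without Serpina1b (-0.405, edgeR adjusted p = 0.0651), where 31.6% of all genes were called higher and 1.44% lower. This contrast and KD against control diet share the 3xTg KD livers.

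The members lie in 1 stretch of chromosome 12 (GRCm38), from Serpina6 (chr12:103646630-103657212) to Serpina3m (chr12:104338486-104394257). Between them, in order, are Serpina1b and Serpina1d, Serpina1a (chr12:103853589-103863562), Serpina1c (chr12:103894926-103904887), Serpina1e (chr12:103946931-103958975), Serpina11 (chr12:103980243-103989957), Serpina3c (chr12:104146382-104153870) and Serpina3k (chr12:104338486-104346144). The intervals of Serpina3k and Serpina3m begin at the same base and overlap. The table lists 28 Serpina genes on chromosome 12, and 16 passed the expression filter, among them 6 that are not members. Serpina10, a protease inhibitor that works with protein Z, was at 185 to 223 CPM in the group means, and Serpina3n, an acute phase antichymotrypsin, at 298 to 426. Neither passed the test in any of the 11 contrasts, and Serpina3f and Serpina3g did not either. Serpina12 (vaspin) was higher in 3xTg on MCT (4.01 ± 0.70, edgeR adjusted p = 0.0016), at 18.0 ± 20.6 against 1.11 ± 0.67 CPM, and lower on KD than MCT in 3xTg (-3.41 ± 0.66, edgeR adjusted p = 0.00369). Serpina4-ps1 was lower on KD than MCT in 3xTg (edgeR adjusted p = 0.0231), from a level of 4.70 ± 9.02 CPM. On control diet the called members lay in the order Serpina1b, Serpina1d, Serpina1a and Serpina1c, all higher in 3xTg, then Serpina11 and Serpina3c, both lower. Gm8893 (lower) lies between Serpina1d and Serpina1a.

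**Figure D5:**
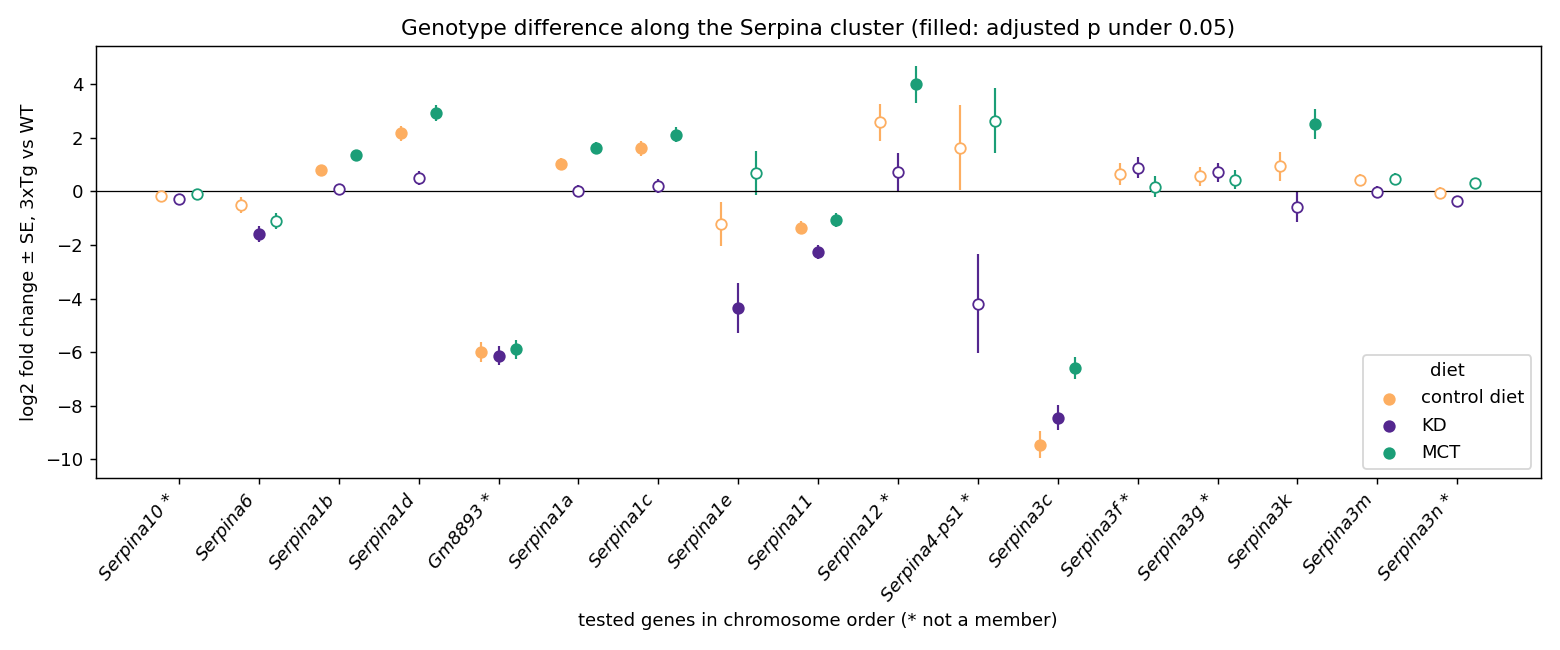
Log2 fold change ± SE between 3xTg and WT livers of the tested Serpina genes and Gm8893 in chromosome order on 3 diets, filled where adjusted p is under 0.05, with non-members starred. Gm8893 (-6.13 to -5.89) and Serpina3c (-9.46 to -6.58) are the lowest points on every diet.

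Members also varied together from liver to liver within groups, given here as a description over 24 livers that share libraries and, for paralogs, reads. After group means were removed, log2 levels of Serpina1a and Serpina1c had a Pearson r of 0.92, Serpina1b and Serpina1d 0.81, and Serpina3k and Serpina3m 0.75. Serpina6 went the other way from Serpina3m (-0.60) and Serpina3k (-0.55). The genes outside the family with the most similar pattern over 24 livers were Pm20d1 for Serpina1a, Serpina1b and Serpina1c (0.84 to 0.86), and Acpp for Serpina1d (0.86). Car5b was in the list of 3 for Serpina1a, Serpina1b and Serpina1d (0.83 to 0.85). Serpina1e was closest to Cdk5rap3, Ssr2 and Sec61a1 (0.79 to 0.80), of which the last encodes a channel of the endoplasmic reticulum.

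Serpina3c was closest to Rps13-ps1, Cyp2c39 and Zfp429 (0.98), Serpina3k to Gfra1, Egfr and Rnf217 (0.78 to 0.85), and Serpina3m to Glrx, C6 and Crybg3 (0.71 to 0.74). Serpina6 was closest to Dsg2 (0.90), ahead of Crtap and Pdzk1. For Serpina11 the values of Mst1 and Rps13-ps1 were 0.90 and 0.87. For genes outside the family group means were not removed, so the values of every member mix group differences with relations within groups. For Serpina3c the WT and 3xTg livers form separate clusters, so its values describe the gap between the lines more than a relation within them.

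The lists of related genes were described by counts and medians. Of 11 liver serpins outside the cluster none passed the test between the lines on control diet or MCT, with medians of 0.0984 and 0.0273. In 3xTg against WT on KD 4 of 11 were lower, where 4.22% of all genes were. The list's median was -0.435, against 0.00154 over all genes. The 4 were Serpinc1 (antithrombin, -0.65 ± 0.14), Agt (angiotensinogen, -0.73 ± 0.22), Serpind1 (heparin cofactor, -0.44 ± 0.13) and Serpinf1 (-0.62 ± 0.19). On KD against control diet in 3xTg, Serpinf1 (-0.85 ± 0.19) and Serpinc1 (-0.60 ± 0.14) fell, where 2.54% of all genes were called lower. All had edgeR adjusted p of at most 0.0435. In KD against MCT in 3xTg livers 3 of 11 were lower, where 4.43% of all genes were, and 1 was higher, where 3.59% were (median -0.448 against -0.00795 over all genes). On KD against control diet 1 of 11 was higher in each line, where 48 of 13281 genes were in WT and 2.85% in 3xTg.

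Of 14 transcription factors that drive liver serpin genes, HNF1 and HNF4 factors passed in no contrast. Onecut1 was lower in 3xTg than WT on KD (-1.58 ± 0.36, edgeR adjusted p = 0.00947) and fell on KD in 3xTg (-1.26 ± 0.36, edgeR adjusted p = 0.0423). Cebpb, an acute phase factor, rose on KD in 3xTg (0.998 ± 0.287, edgeR adjusted p = 0.0435) and was higher on KD than MCT (1.22 ± 0.29). The list's medians were -0.243, 0.0284 and -0.144 in these 3 contrasts, against 0.00154, 0.0127 and -0.00795 over all genes. Of all genes, 4.27%, 2.85% and 3.59% were called higher in them, and 4.22%, 2.54% and 4.43% lower. The same shares and medians of all genes apply to these contrasts in the lists that follow. Of 13 genes of glucocorticoid signalling, which Serpina6 serves, Tsc22d3 rose on KD in 3xTg from 53.6 ± 14.3 to 102 ± 27.4 CPM (0.92 ± 0.22, edgeR adjusted p = 0.0179) and Sgk1 also rose (0.71 ± 0.21, edgeR adjusted p = 0.0494). On KD, Tsc22d3 was higher (1.08 ± 0.22) and Hsd11b1, which regenerates active glucocorticoid, lower (-0.48 ± 0.15) in 3xTg than in WT. Tsc22d3 (1.13 ± 0.22) and Sgk1 (0.82 ± 0.21) were also higher on KD than MCT in 3xTg. The list's medians were -0.0609 for KD against control diet in 3xTg, 0.224 for 3xTg against WT on KD and 0.0402 for KD against MCT in 3xTg.

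Of 20 acute phase proteins, Saa1 (2.19 ± 0.58) and Saa2 (2.14 ± 0.58) were higher in 3xTg than WT on KD, while Itih3 fell on KD in 3xTg (-0.85 ± 0.25). The spread was wide, with Saa1 at 92.9 ± 84.7 CPM in 3xTg against 20.3 ± 18.5 in WT. Saa2 was at 51.3 ± 44.9 against 11.6 ± 9.56 CPM. The 3xTg KD group includes both neutrophil-rich livers. In KD against MCT in 3xTg, 6 of 20 were lower, where 4.43% of all genes were (median -0.57 against -0.00795 over all genes), among them Itih3 (-1.36 ± 0.25) and Itih4 (-0.84 ± 0.21), parts of inter-alpha-trypsin inhibitor and its relatives. Of 10 growth hormone genes, Stat5a rose on KD in 3xTg (0.82 ± 0.23). In KD against MCT in 3xTg 1 was higher, where 3.59% of all genes were, and 2, Socs2 and Ghr, were lower, where 4.43% were. The list's median there was -0.344, against -0.00795 over all genes. Of 14 genes that fold and export serpins in the endoplasmic reticulum, Uggt1 alone passed, lower on KD than MCT in 3xTg (-0.83 ± 0.23, list median -0.221). Of 11 target proteases on a last list 6 were tested. Prss2, Ctrb1 and Klk1, genes known in exocrine pancreas, were lower in 3xTg KD livers than in WT KD or 3xTg MCT livers, which hold the pancreas-bearing libraries. No gene of these 6 lists, from transcription factors to proteases, passed in the other 8 contrasts. All calls named in these lists had an edgeR adjusted p of at most 0.0494.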

How the data were processed

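PolyA RNA of 24 livers was sequenced. The authors deposited raw counts of reads per gene, not normalized, with gene names and GRCm38 coordinates. Trimmomatic and STAR are named in the submitters' processing notes, and per the deposited table's name the counts are stranded. Nothing in the sources at hand states the strand direction, the use of molecular identifiers or the read length. The 4 summary entries, 21.5% to 30.1% of each library, were left out. The members and lists were chosen with earlier results of these data known.

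Counts were analysed with edgeR 4.0.16 in R 4.3.3 (filterByExpr by group, TMM, 1 quasi-likelihood fit of 24 livers, 18 residual degrees of freedom, Benjamini-Hochberg adjustment over 13281 genes, threshold 0.05). Alternatives used DESeq2 1.42.0, other scaling, no filter, the compared groups alone, a replicate block and the omission of each liver. The fit was tested on simulated data. Named genes were the 10 members in all groups, with statistics where called or where the log2 change was at least 1, the 3 genes of most similar pattern per member (mean of at least 1 CPM, log2(CPM + 0.5)), and up to 4 called genes per list. The remaining statistics were added after their values were seen. Gene length was the union of exons in GENCODE M21. Alignments used MAFFT 7.526.

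Replicates differed beyond sampling noise, with a chi-square per gene of at least 27.3 between any pair, so none was a duplicate. The p-values set a difference against the spread between livers within groups, pooled over all groups in the fit. Some results, among them 1 gene of similar pattern and 1 gene of a list, are not reported here.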

Additional observations from a re-analysis of the deposited data

Results flagged for a closer look

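Of 60 sets of 4 livers (10 members in 6 groups), 6 held a liver whose gap to the others took up most of the group's range, by Dixon's test at 95%, while chance gives about 1 in 20. In 3xTg livers on MCT the same liver, replicate 4, stood apart for 3 members. Serpina1e was at 406.9 CPM there against 15.7 to 44.83 in the others, Serpina11 at 51.81 against 26.16 to 28.81, and Serpina3c at 1.216 against 0.3876 to 0.4468. Serpina1b was at 3135 CPM in WT KD replicate 1 against 1849 to 1977, and at 2002 CPM in WT MCT replicate 3 against 1514 to 1590. Serpina3m was at 495.4 CPM in WT control replicate 2 against 344.7 to 369.2. Of these livers, all but WT control replicate 2 carried pancreas transcripts, at 1020 CPM or more. WT KD replicates 2 and 4 and 3xTg MCT replicate 3 also carried them, at 15800, 4810 and 2950 CPM, and were flagged for no member. The part of that tissue was not tested.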

How the results depend on the processing

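Scaling by library size alone moved the median log2 change of all genes to 0.431 in 3xTg against WT on KD. That median became 0.308 in KD against control diet and 0.427 in KD against MCT in 3xTg, and 0.451 in the difference of KD responses. Members called became 7 in 3xTg against WT on KD (main value 4, with Serpina1b, Serpina1c and Serpina1d now higher), 2 in KD against control diet in 3xTg (main 4), 6 in KD against MCT in 3xTg (main 7) and 1 in the difference of KD responses (main 0). Over all genes the calls in these contrasts became 4646, 1762, 4384 and 985, from 1128, 716, 1065 and 1. The summed antitrypsin log2 ratio became 0.576, -0.428, -0.661 and -0.615 in 3xTg against WT on KD, KD against control diet in 3xTg, KD against MCT in 3xTg and the difference of KD responses, from 0.133, -0.732, -1.10 and -1.05. Without an expression filter, and with DESeq2, 1 member was called in KD against MCT in WT (main 0). DESeq2 called 1 in MCT against control diet in 3xTg and 3 in the difference of KD responses (main 0 each), where 24 and 253 of all genes were called. The compared groups alone called 1 in that difference, 6 in KD against control diet in 3xTg (main 4), and 5 each in 3xTg against WT on control diet (main 6), on MCT (main 7) and in KD against MCT in 3xTg (main 7). By edgeR the calls lost there were Serpina1b on control diet (adjusted p = 0.0999), Serpina3k (0.111) and Serpina11 (0.183) on MCT, and Serpina1e (0.0586) and Serpina3k (0.139) in KD against MCT. Replicate numbers are shared between groups, but no label ties a number to an animal, litter or day. Same-numbered livers deviated together by over 0.1 in all 4 pairs in 1 of 9 comparisons (3xTg against WT on MCT), and 0 to 3 of 8 livers in a comparison correlated best with the liver of their own number. With the replicate block 2 members were called in KD against control diet in 3xTg, without Serpina1e and Serpina6, and Serpina3k was not called in KD against MCT in 3xTg. The block changed no other call. 2 sets of livers were left out after the data were seen. Without the pancreas-bearing libraries 2 members were called in KD against MCT in 3xTg (main 7), and Serpina1e in MCT against control diet in 3xTg turned to -0.926. Without both neutrophil-rich livers the counts were 2 in 3xTg against WT on KD, 0 in KD against control diet and 3 in KD against MCT in 3xTg. Over all genes the calls there were 142, 76 and 234, from 1128, 716 and 1065. Leaving out 1 liver at a time gave 0 to 4 members in KD against control diet in 3xTg, and 0 to 1 in KD against MCT in WT (1 without WT MCT replicate 3) and in the difference of KD responses (1 without 3xTg KD replicate 4). For Serpina1e it gave -0.975 to 2.02 in MCT against control diet in 3xTg and -0.192 to 2.81 in the difference of MCT responses, and for the summed Serpina3c, Serpina3k and Serpina3m log2 ratio in that difference 0.504 to 1.6, each lowest without 3xTg MCT replicate 4. The cause of these shifts was not tested. Gm8893 and Serpina3c kept direction and call in all 3 genotype contrasts under every alternative run, from -6.55 to -5.67 and from -9.75 to -6.40. Serpina1c, Serpina1d and Serpina11 did so on control diet, Serpina1a to Serpina1d on MCT, and Serpina11 on KD. The number of livers, 4 per group, and the shared sequence of the antitrypsin genes limit precision, and Serpina3c in 3xTg livers rests on 1 to 23 reads per liver.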
